A study of Mus musculus with 24 samples.

Results

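Mouse embryonic stem cells (ESCs) that had lost *Tet2* were compared directly with ESCs that had lost *Tet1*, 6 days after leukemia inhibitory factor (LIF) was taken out of the medium (D6). The comparison uses 5 of the 24 RNA-seq libraries of the series, 2 of Tet2-/- (clones labelled KO_3.10 and KO_3.11) and 3 of Tet1-/- (clones KO_2.1, KO_2.2 and KO_2.4), and the first line of the count table for each gene symbol. All clones come from 1 parental ESC line derived from strain 129/SVj with an eGFP reporter at the Oct4 locus, and each was edited with Cas9 and a single guide RNA per gene. No genotype was treated in another way, so the Tet1-/- and Tet2-/- libraries share the parental line, the reporter, the medium and the time without LIF. Undifferentiated cells (D0) of the same genotypes, and D6 libraries of wild-type (WT), double knockout (DKO, *Tet1* and *Tet2*) and triple knockout (TKO) clones, are used only to place the result. A genotype is represented by its clones, and a property of a clone cannot be told apart from an effect of the deletion when both Tet2-/- clones share it.

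Tet proteins oxidize 5-methylcytosine to 5-hydroxymethylcytosine and further products, a step towards the removal of DNA methylation. *Tet1* and *Tet2* are both transcribed in ESCs, and their proteins differ in that Tet1 carries a CXXC domain that binds CpG-rich DNA whereas Tet2 does not. LIF keeps ESCs in the naive pluripotent state through Stat3, and without it the cells leave that state, pass through an epiblast-like state and begin to form primitive streak, mesoderm and endoderm.

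The edited sites are shown first, because they define both groups. The guides and the clone sequences are those listed by the study, and the sites were found by an exact match in mm9 (NCBIM37). Exons are numbered over all exons of the transcript with the most exons among those that are coding at the site. The *Tet1* site, chr10:62296283-62296317 on the minus strand, covers the last 32 bases of exon 5 of 13 and the first 3 bases of the following intron. The *Tet2* site, chr3:133148610-133148641 on the minus strand, lies within exon 3 of 11. In the first pair of lines the capitals mark the PAM, which follows the 20 bases of the guide, and in the other lines they mark the bases that an allele has lost.

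Tet1 site: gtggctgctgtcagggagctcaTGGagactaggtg
Tet2 site: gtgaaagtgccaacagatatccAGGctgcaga
Tet1 clone 1, allele 1: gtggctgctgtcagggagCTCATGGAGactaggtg
Tet1 clone 1, allele 2: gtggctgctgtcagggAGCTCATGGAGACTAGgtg
Tet1 clone 2, allele 1: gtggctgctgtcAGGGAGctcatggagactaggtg
Tet1 clone 2, allele 2: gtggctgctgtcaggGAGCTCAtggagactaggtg
Tet1 clone 3, allele 1: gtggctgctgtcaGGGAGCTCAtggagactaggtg
Tet1 clone 3, allele 2: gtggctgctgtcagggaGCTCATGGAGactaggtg
Tet2 clone 1: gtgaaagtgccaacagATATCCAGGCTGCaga
Tet2 clone 2: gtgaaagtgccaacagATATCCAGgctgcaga

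In each of the 3 Tet1-/- clones, 1 allele has lost a number of bases that 3 divides (9, 6 and 9), and the other has lost 16, 7 and 10. Both Tet2-/- clones are listed with a single allele, which has lost 13 or 8 bases, neither divided by 3. The study reports loss of the protein by Western blot, and these blots were not analysed here. A single listed allele does not show what the second one carries, and the numbering of the clones in that list was not tied to the clone names of the libraries.

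RNA of the edited genes was still counted in every library. Levels are given as CPM, which are counts scaled to a common library size with the TMM method of edgeR. At D6, *Tet1* stood at 82.4 CPM in clone KO_2.1, 154 in clone KO_2.2 and 190 in clone KO_2.4, and at 319 and 286 in Tet2-/- clones KO_3.10 and KO_3.11. The groups did not overlap, as for 25% of all tested genes in this direction, and the log2 difference of 1.08 (SE 0.50) did not pass the test (adjusted p = 0.18, from the quasi-likelihood test of edgeR after Benjamini-Hochberg correction). *Tet2* was at 12.6, 13.5 and 13.3 CPM in Tet1-/- and at 15.9 and 16.6 in Tet2-/-, so its RNA was not lower in the D6 libraries that carry the *Tet2* edit (log2 difference 0.29, SE 0.25, adjusted p = 0.457, edgeR). At D0, by contrast, *Tet2* was at 84.0, 113 and 90.3 CPM in Tet1-/- and at 20.9 and 23.2 in Tet2-/-, a log2 difference of -2.12 (adjusted p = 0.016, edgeR), and the difference between the days was itself called (2.43 on the log2 scale, SE 0.61, adjusted p = 0.0402, edgeR). *Tet3*, which was not edited in either group, was at 12.01, 16.6 and 13.3 CPM against 15.3 and 16.0. Reads from a transcript with a short deletion can still be counted, so these levels do not check the genotype labels.

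Total counts were 26033543 to 31426279 per Tet1-/- library and 28139525 to 33991489 per Tet2-/- library at D6, so depth was alike in both groups, and 3 counts, the limit that a count of 0 allows, equalled 0.0814 to 0.151 CPM over all 24 libraries for counting error only. Among the Tet1-/- libraries that of clone KO_2.4 lay nearest to Tet2-/- in the features given next. Genes of the Y chromosome were low in it and in both Tet2-/- clones at D6. *Ddx3y*, an RNA helicase gene of the Y chromosome, was at 16.5 and 32.5 CPM in clones KO_2.1 and KO_2.2, at 1.86 in clone KO_2.4, and at 1.497 and 0.0697 in Tet2-/-, while at D0 it was at 2.23, 1.598 and 4.098 in Tet1-/- and at 0.341 and 0.175 in Tet2-/-. Clone KO_2.4 also lay on the side of the Tet2-/- clones in the median levels of chromosomes 6, 8 and 11, which are described further on. On chromosomes 8 and 11 clone KO_2.2 lay on the other side at D6 (-0.20 and 0.19, relative to the Tet1-/- mean). At D0 the library of clone KO_2.4 did not lie with Tet2-/- on chromosomes 6 and 8. On chromosome 11 at D0 it was at -0.015, beside 0.009 and 0.003 in Tet2-/-, so the groups were not apart there. Across genes, the deviations of the D0 and D6 libraries labelled KO_2.4 from their group means correlated with r = 0.172, against 0.078 for KO_2.1. Different clones were not paired across the days for comparison, so these values cannot decide whether the label is right. The files do not settle the label of the D6 library, and every Tet1-/- value at D6 and the block by clone rest on that label. Its part in the results was not tested beyond leaving it out, and counts that this moves by over 1.5 times are given beside the lists concerned.

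All 12 D6 libraries entered 1 fit of edgeR's quasi-likelihood model, so that the spread was estimated over all 5 genotypes, and Tet2-/- was contrasted with Tet1-/-. Of 15435 genes tested, 289 were called higher in Tet2-/- (1.87%) and 692 lower (4.48%), 6.36% in all, at a Benjamini-Hochberg adjusted p under 0.05 and a difference of more than 2-fold. Genes that were lower made up 70.5% of the calls. The median log2 difference was 1.64 over the genes called higher, -1.94 over those called lower and -0.03 over all genes tested, and the smallest adjusted p was 0.00302 (edgeR). Without clone KO_2.4, 571 genes were higher and 1142 lower. Without clone KO_2.1 the counts were 58 and 156, without clone KO_2.2 they were 162 and 544, and with a single Tet2-/- clone they fell to 12 and 8 (without KO_3.10) or to 2 and 0 (without KO_3.11). At an unadjusted p under 0.05 and the same fold, edgeR still gave 505 and 1089 genes without KO_3.10 and 414 and 953 without KO_3.11, against 572 and 1321 with both clones. The number of calls thus rested on having both Tet2-/- clones and on which Tet1-/- clones were present. The labels name clones and not separate differentiations of a clone, so p-values measure the spread between clones.

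**Figure D1:**
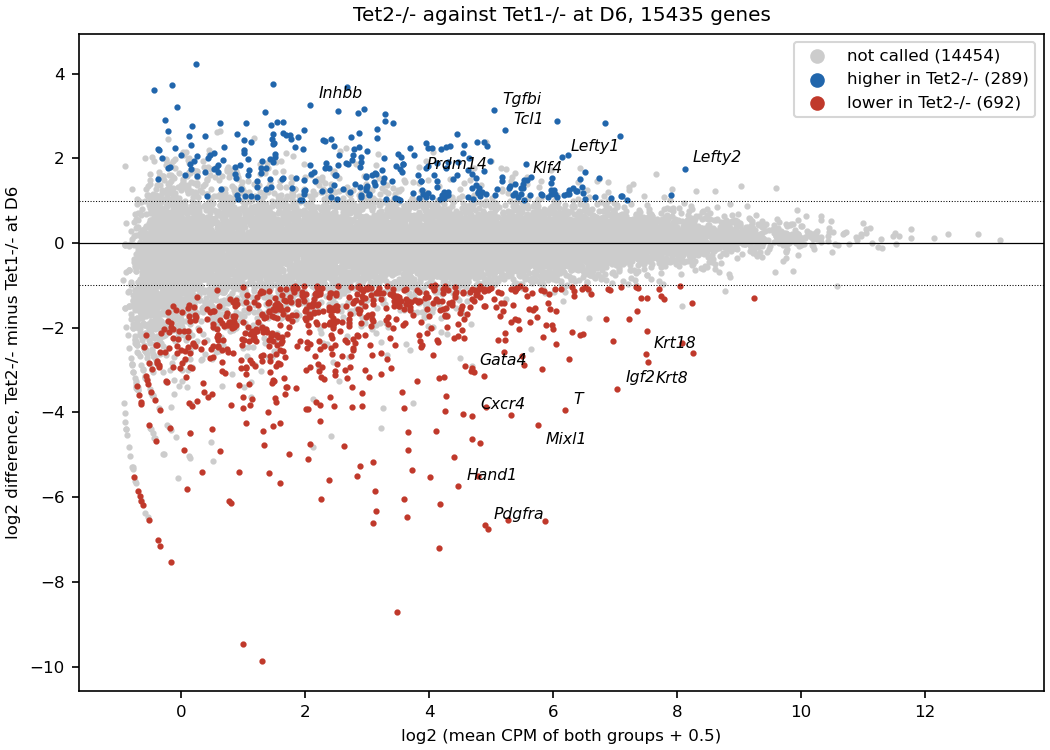
Each point is 1 of 15435 genes; the x axis is the log2 of the mean CPM of both groups plus 0.5, and the y axis the log2 difference of Tet2-/- minus Tet1-/- at D6. The 289 genes called higher are blue and the 692 called lower are red, dotted lines mark 2-fold, and the largest differences lie among the genes called lower.

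Most tested genes of the primitive streak and early mesoderm list were called lower in Tet2-/- than in Tet1-/-. Of 16 members of this list that were tested, 10 were called lower (62.5%, against 4.48% of all genes tested) and 0 higher (1.87% of all genes), and the median log2 difference of the list was -3.25. Without clone KO_2.1 the 10 calls became 7, without KO_2.2 9 and without KO_2.4 12. With a single Tet2-/- clone, whichever was left out, none of the lists described here had a member called lower by edgeR, and only *Tgfbi*, or without KO_3.10 also *Sfrp1*, remained called higher. The counts of the lists below share this limit. *T* (Brachyury), the T-box factor that marks the primitive streak, was at 155, 187 and 67.4 CPM in Tet1-/- clones KO_2.1, KO_2.2 and KO_2.4 and at 12.7 and 5.16 in Tet2-/- clones KO_3.10 and KO_3.11. The groups did not overlap, as for 25.6% of all tested genes in this direction, clone KO_2.4 was the lowest of the Tet1-/- clones, and the log2 difference was -3.94 (SE 0.67, adjusted p = 0.0114, edgeR). *Mixl1*, a homeobox gene of the streak, was at 125, 141 and 38.8 CPM against 6.48 and 3.87, a log2 difference of -4.30 (SE 0.89, adjusted p = 0.0181, edgeR). Here too both Tet2-/- clones lay below every Tet1-/- clone.

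*Eomes*, a T-box factor of the streak and of the trophoblast, was at 196.1, 350 and 148 CPM in Tet1-/- and at 79.9 and 55.6 in Tet2-/-, and its difference was the smallest among the called members (-1.78 on the log2 scale, adjusted p = 0.0322, edgeR). *Lhx1*, a LIM homeobox gene of the organizer, went from 107, 209 and 30.5 CPM to 1.84 and 0.523, a log2 difference of -6.58 (SE 1.0, adjusted p = 0.00839, edgeR). *Mesp1*, which marks the earliest cardiovascular progenitors, was at 19.1, 81.0 and 4.01 CPM against 0.345 and 0.105. For both of these genes clone KO_2.2 was well above clone KO_2.4, and the groups still did not overlap. *Kdr*, the VEGF receptor of early mesoderm and endothelium, *Gsc*, *Wnt3*, *Evx1* and *Fgf8* were the other members called lower, with log2 differences from -6.55 (*Kdr*) to -1.88 (*Fgf8*). *Foxa2*, *Mesp2*, *Msgn1*, *Tbx6* and *Wnt3a* did not pass the test (log2 differences from -5.14 for *Msgn1* to -1.42 for *Tbx6*), and *Cdx1* was at 1.44 and 1.67 CPM in Tet2-/- against 0.900, 0.4998 and 0.789.

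Members of the lists for cardiac mesoderm and definitive endoderm, which arise from the streak, were called in the same direction, in part of each list. In cardiac mesoderm 5 of 14 members were called lower (35.7%, against 4.48% of all genes tested) and 0 higher, with a median of -3.12. In definitive endoderm 7 of 12 were called lower (58.3%) and 0 higher, with a median of -3.16, and *Gata4* and *Gata6* stand in both lists. Without clone KO_2.1 the counts were 1 and 3, without KO_2.2 3 and 5, and without KO_2.4 8 and 8. *Hand1*, a bHLH factor of heart and extraembryonic mesoderm, was at 44.9, 73.8 and 8.43 CPM in Tet1-/- and at 0.720 and 0.872 in Tet2-/-, a log2 difference of -5.75 (SE 1.2, adjusted p = 0.019, edgeR). *Hand2* had no count in either Tet2-/- library and 2.87, 8.18 and 0.821 CPM in Tet1-/- (adjusted p = 0.0261, edgeR). With the Tet2-/- libraries set at 3 counts each, it was at least 41.4-fold below the Tet1-/- mean. This bound covers counting error only, and the mean rests mostly on clone KO_2.2. *Gata4*, a zinc finger factor of heart and endoderm, was at 40.9, 77.4 and 16.3 CPM against 5.18 and 5.96. Both Tet2-/- clones were below the lowest Tet1-/- clone, which was again clone KO_2.4.

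Among endoderm genes, *Sox17*, the defining factor of definitive endoderm, was at 21.2, 22.2 and 5.24 CPM in Tet1-/- and at 0.432 and 0.105 in Tet2-/- (log2 difference -5.85, SE 1.2, adjusted p = 0.0175, edgeR). *Cxcr4*, a chemokine receptor of endoderm and mesoderm, was at 42.3, 89.0 and 13.1 CPM against 3.14 and 2.62 (log2 difference -4.07, adjusted p = 0.0173, edgeR). *Cer1*, a secreted inhibitor of Nodal, was at 34.2, 44.7 and 12.9 CPM against 1.01 and 0.279. In these 3 genes both Tet2-/- clones lay below every Tet1-/- clone, of which clone KO_2.4 was the lowest. *Gsc* was also called lower, whereas *Foxa1*, *Foxa2*, *Hhex*, *Hnf4a* and *Prdm1* were not called. Of the visceral endoderm genes, *Afp*, *Ttr* and *Apoa1* were at or below 0.145 CPM in all 5 libraries and were not tested. In bulk RNA, fewer cells of a type and less RNA per cell cannot be told apart.

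**Figure D2:**
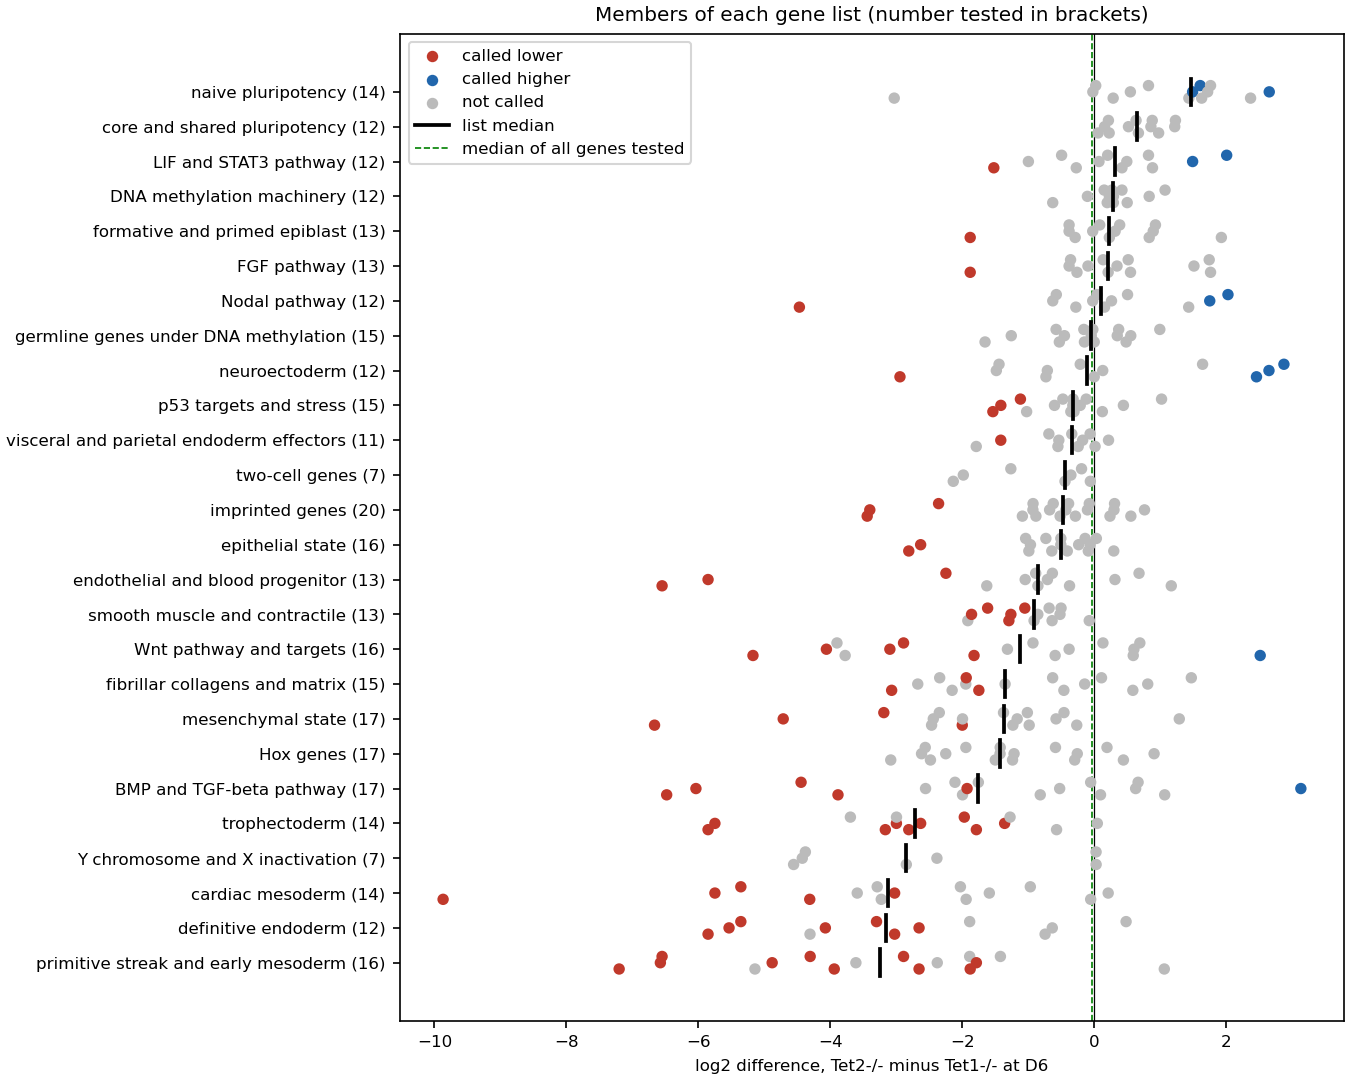
Each row is a gene list with the number of tested members in brackets, each point a member, and the x axis the log2 difference of Tet2-/- minus Tet1-/- at D6. The black bar is the median of the list, from -3.25 for primitive streak and early mesoderm to 1.47 for naive pluripotency, and the green dashed line the median of all genes tested (-0.03).

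Most genes of the trophectoderm list, several of which are also made by other epithelia, were called lower as well. Of 14 tested members 9 were called lower (64.3%, against 4.48% of all genes tested) and 0 higher, with a median log2 difference of -2.72, or -2.298 with *Elf5* at its lower bound, and 4 were called without clone KO_2.1. The list shares *Eomes* and *Hand1* with the lists above, and of its defining genes *Cdx2* was at 6.62, 9.78 and 5.24 CPM in Tet1-/- against 0.432 and 0.697 without passing the test (adjusted p = 0.0658, edgeR). *Elf5* was below 0.4 CPM in all 5 libraries and at 0 counts in both Tet2-/- clones. *Krt8* and *Krt18* encode a pair of keratins that form filaments together in simple epithelia, and both were abundant. *Krt8* was at 507, 225 and 232 CPM in Tet1-/- and at 47.9 and 44.8 in Tet2-/-, a log2 difference of -2.81 (SE 0.47, adjusted p = 0.0108, edgeR). *Krt18* was at 474, 230 and 225 CPM against 52.0 and 49.2, a log2 difference of -2.63 (SE 0.39, adjusted p = 0.00795, edgeR).

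For both keratins clone KO_2.1 was the highest, clones KO_2.2 and KO_2.4 were close to each other, and the Tet2-/- clones lay below all 3. They are neighbours on chromosome 15, and the 250 bases before the start of each gene are shown, from RefSeq (GRCm38.p6), with every CG in capitals because CpG methylation is what Tet proteins act on. An exact match places them in mm9 at chr15:101834774-101835023 (*Krt8*, minus strand) and chr15:101858397-101858646 (*Krt18*, plus strand).

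Krt8: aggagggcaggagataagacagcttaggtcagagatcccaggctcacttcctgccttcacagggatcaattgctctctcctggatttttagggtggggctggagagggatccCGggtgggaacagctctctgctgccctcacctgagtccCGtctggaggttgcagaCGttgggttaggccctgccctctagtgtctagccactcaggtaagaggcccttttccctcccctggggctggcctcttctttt
Krt18: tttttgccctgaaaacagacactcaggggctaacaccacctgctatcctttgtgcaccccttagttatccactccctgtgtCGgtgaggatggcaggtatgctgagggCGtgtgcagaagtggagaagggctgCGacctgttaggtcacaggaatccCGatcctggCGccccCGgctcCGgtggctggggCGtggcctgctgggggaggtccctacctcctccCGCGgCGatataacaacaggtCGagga

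The *Krt8* window holds 3 CG and the *Krt18* window 12. Among tested genes with such a sequence, 93.9% have at least 3 CG in this window and 64.3% at least 12. Promoter sequences matched only 73.8% of the tested genes by symbol (71.6% of those called higher and 70.1% of those called lower), under 80%, so a comparison of CpG content between called genes and all genes would be void and is not given.

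Some muscle, matrix and mesenchymal genes were lower as well. Of 13 smooth muscle and contractile genes 5 were called lower (38.5%, against 4.48% of all genes tested, median -0.91), and these are cytoskeletal genes of many cell types rather than markers of muscle alone. Without clone KO_2.1 this count was 0 by edgeR, and with the 5 compared libraries alone it was 3. *Tpm1*, a tropomyosin, was at 376, 247 and 278 CPM in Tet1-/- and at 128 and 125 in Tet2-/-, and *Tagln*, *Cald1*, *Csrp1* and *Lmod1* were called with log2 differences of -1.86 to -1.05. In the mesenchymal list 4 of 17 members were called lower (median -1.37), among them *Snai1*, a repressor of E-cadherin, at 23.0, 61.3 and 9.82 CPM against 3.48 and 3.45, and *Pdgfra*, a receptor of mesoderm and fibroblasts, at 42.9, 123 and 8.96 CPM against 0.777 and 0.349. *Cdh11* and *Twist2* were the others, and without clone KO_2.1 or KO_2.2 the count was 2. Of 15 collagen and matrix genes 3 were called lower (*Col5a1*, *Col6a1* and *Col6a2*, median of the list -1.35), which became 0 by edgeR without clone KO_2.1, 6 without KO_2.4 or either TKO clone and 5 without WT clone O4.2. The fibroblast collagen *Col1a1* was at 40.1, 35.3 and 17.7 CPM against 7.66 and 6.45 and just missed the threshold (adjusted p = 0.0506, edgeR), while *Thy1* overlapped between the groups. In the endothelial and blood list 3 of 13 were called lower (*Kdr*, *Flt1* and *Sox17*, median -0.85), and 1 without clone KO_2.1.

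Among naive pluripotency genes a few were called, in the opposite direction. Of 14 naive pluripotency genes 3 were called higher in Tet2-/- (21.4%, against 1.87% of all genes tested) and 0 lower, 11 were not called, and the median log2 difference was 1.47. *Tcl1*, a coactivator of Akt in ESCs, was at 9.20, 4.25 and 16.6 CPM in Tet1-/- and at 60.03 and 67.8 in Tet2-/- (log2 difference 2.66, SE 0.47, adjusted p = 0.0127, edgeR). *Klf4*, a zinc finger factor that LIF induces, was at 31.3, 15.3 and 24.6 CPM against 65.0 and 70.5 (1.49 on the log2 scale, SE 0.41, adjusted p = 0.0455, edgeR). *Prdm14*, a repressor of differentiation genes, was at 7.23, 5.07 and 7.83 CPM against 20.1 and 21.3 (1.61, adjusted p = 0.0359, edgeR). In all 3 genes both Tet2-/- clones lay above every Tet1-/- clone.

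Several further naive genes lay apart without a call. *Esrrb*, an orphan nuclear receptor of the naive network, was at 110, 43.0 and 140 CPM in Tet1-/- against 288 and 323 (adjusted p = 0.0756, edgeR), and *Nr0b1* was at 8.01, 3.68 and 16.9 CPM against 48.4 and 51.2 (adjusted p = 0.0613, edgeR). *Nanog* was at 314, 296 and 354 CPM against 401 and 391.9 (adjusted p = 0.546, edgeR), *Zfp42* overlapped, and *Dppa3* was lower in Tet2-/- (0.374 and 0.488 CPM against 5.31, 3.07 and 2.05, adjusted p = 0.0586, edgeR). The 3 calls became 0 by edgeR without clone KO_2.1 and 1 without KO_2.2, either DKO clone or WT clone O4.13, and they became 6 without KO_2.4 and 8 without WT clone O4.2. None of the 12 core and shared pluripotency genes was called in either direction by edgeR (against 1.87% of all genes higher and 4.48% lower), with a median of 0.65. In 10 of the 12 both Tet2-/- clones nevertheless lay above every Tet1-/- clone, as for 25% of all genes tested. *Pou5f1* (Oct4) was at 315, 256 and 446 CPM against 489 and 575 and *Sox2* at 222, 127 and 351 against 524 and 576, and the groups did not overlap in either gene. Both groups thus still had RNA of the core factors after 6 days.

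**Figure D3:**
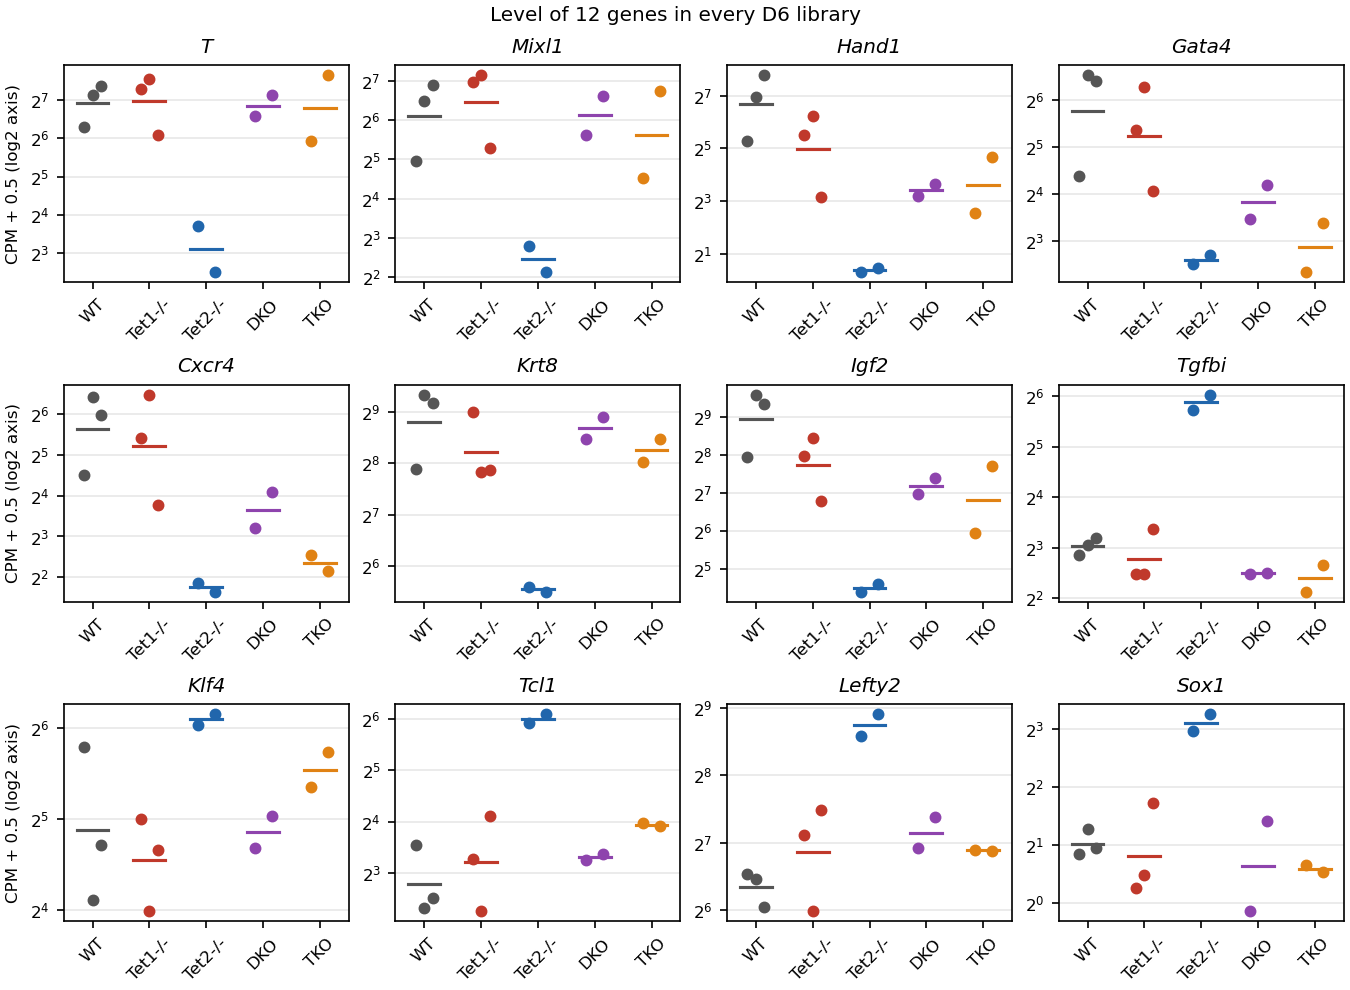
Each panel is a gene, each point 1 D6 library, and the y axis is CPM plus 0.5 on a log2 axis; bars are geometric means of the group. In the panels of *T*, *Mixl1*, *Hand1*, *Gata4*, *Cxcr4*, *Krt8* and *Igf2* both Tet2-/- libraries lie below the 3 Tet1-/- libraries, and in those of *Tgfbi*, *Klf4*, *Tcl1*, *Lefty2* and *Sox1* they lie above.

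The formative and primed epiblast list held 1 call among 13 members (*Fgf8*, lower), and its median of 0.23 was near 0. *Fgf5*, the marker of the primed epiblast, was at 148, 143 and 196.2 CPM in Tet1-/- and at 135 and 117 in Tet2-/- (adjusted p = 0.608, edgeR), and *Otx2* and *Dnmt3b* overlapped. *Nodal* itself, at 105, 104 and 109 CPM against 99.8 and 112, overlapped as well. Of the neuroectoderm list 3 of 12 members were called higher (25%, against 1.87% of all genes tested) and 1 lower (8.33%, against 4.48%), with a median of -0.10. Without clone KO_2.1 these counts were 0 and 0 by edgeR, and without KO_2.4 2 were called lower. *Tubb3*, the neuronal tubulin, was at 12.9, 7.92 and 26.6 CPM in Tet1-/- and at 109 and 126 in Tet2-/- (log2 difference 2.88, SE 0.59, adjusted p = 0.0182, edgeR), and *Sox1*, a factor of the neural plate, was at 0.697, 0.892 and 2.81 CPM against 7.28 and 9.06 (2.46, SE 0.62, adjusted p = 0.0338, edgeR). *Hes5* was also called higher but stayed below 1 CPM in all 5 libraries, *Sox21* was called lower, and *Pax6* (0.464, 0.428 and 2.08 CPM against 3.25 and 3.03) and *Nes* (122, 114 and 113 against 75.5 and 66.4) were not called.

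Signalling genes were examined by pathway. In the Wnt list 5 of 16 members were called lower (31.2%, against 4.48% of all genes tested) and 1 higher (median -1.12), and 2 were called lower without clone KO_2.1. *Axin2*, a feedback inhibitor that Wnt signalling induces, was at 62.0, 94.0 and 43.7 CPM in Tet1-/- and at 21.5 and 16.6 in Tet2-/- (log2 difference -1.82, SE 0.38, adjusted p = 0.0189, edgeR). *Sp5*, another Wnt target, was at 78.9, 112 and 33.6 CPM against 5.93 and 3.07 (-4.06, SE 0.67, adjusted p = 0.0104, edgeR). The ligand *Wnt3* and the targets *Dkk1* and *Lgr5* were the other members called lower. *Sfrp1*, a secreted Wnt antagonist, was the member called higher, at 35.8, 37.3 and 46.5 CPM against 213 and 248 (2.52, SE 0.25, adjusted p = 0.00302, edgeR).

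In the BMP and TGF-beta list 5 of 17 members were called lower (29.4%, against 4.48% of all genes tested) and 1 higher (median -1.75), and those lower became 1 without clone KO_2.1 and 8 without KO_2.4, either TKO clone or WT clone O4.2. Without WT clone O4.2 2 were called higher. Of the ligands, *Bmp2* was at 22.3, 44.3 and 5.114 CPM in Tet1-/- and at 0.345 and 0.174 in Tet2-/- (log2 difference -6.48, SE 1.4, adjusted p = 0.0226, edgeR), *Bmp5* and *Bmp7* were called lower, and *Bmp4* (20.1, 30.1 and 11.5 CPM against 17.9 and 22.1) overlapped. Of the targets, *Msx1* and *Msx2* were called lower (-3.88 and -4.44), whereas *Id1* overlapped. *Tgfbi*, an extracellular matrix protein that TGF-beta induces, was the member called higher, at 5.05, 5.07 and 9.79 CPM against 52.7 and 65.1 (3.14, SE 0.28, adjusted p = 0.00302, edgeR). It had one of the smallest adjusted p-values of all genes.

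The Nodal list had 2 members called higher and 1 lower among 12 (median 0.10), and the LIF and Stat3 list likewise 2 and 1 among 12 (median 0.31), that is, 16.7% higher and 8.33% lower in each, against 1.87% and 4.48% of all genes tested. Without clone KO_2.1 none of these 6 calls was made by edgeR, and those higher became 1 in the Nodal list without KO_2.2, either DKO clone or WT clone O4.1, and 1 in the LIF list without KO_2.4, either DKO clone or WT clone O4.13. *Lefty1* and *Lefty2* encode secreted inhibitors of Nodal and are themselves Nodal targets. *Lefty2* was at 138, 62.8 and 178 CPM in Tet1-/- and at 382 and 480 in Tet2-/- (log2 difference 1.75, SE 0.33, adjusted p = 0.0146, edgeR), and *Lefty1* at 22.7, 9.25 and 50.2 CPM against 97.0 and 129 (2.03, SE 0.54, adjusted p = 0.0401, edgeR). The coreceptor *Cfc1* was the member called lower, at 22.03, 44.5 and 3.44 CPM against 1.01 and 1.12, while the related coreceptor *Tdgf1* was not called (484, 528 and 426 against 541 and 540). In the LIF and Stat3 list *Klf4* and *Gbx2* were called higher and *Socs3*, the feedback inhibitor of the pathway, lower, at 23.4, 20.8 and 11.2 CPM against 6.56 and 6.45 (-1.52, SE 0.34, adjusted p = 0.0233, edgeR). The receptor gene *Lifr* was at 10.9, 13.4 and 10.3 CPM against 22 and 20.99 and passed the adjusted p (0.0265, edgeR) but not the 2-fold limit. The FGF list had 1 call among 13, *Fgf8*.

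Imprinted genes gave 3 calls among 20, all lower (15%, against 4.48% of all genes tested, median -0.47), and 0 by edgeR without clone KO_2.1. *Igf2*, a fetal growth factor, was at 252, 352 and 111 CPM in Tet1-/- and at 20.5 and 23.9 in Tet2-/- (log2 difference -3.44, SE 0.67, adjusted p = 0.0159, edgeR), *Peg3* at 514, 630 and 217 CPM against 100 and 78.8 (-2.36, SE 0.49, adjusted p = 0.0187, edgeR), and *Zim1*, the neighbour of *Peg3*, at 5.92, 7.03 and 2.304 CPM against 0.605 and 0.349. *H19*, which lies beside *Igf2*, overlapped between the groups. In the DNA methylation machinery 0 of 12 genes were called by edgeR, although the de novo methyltransferase *Dnmt3a* (173, 197 and 190 CPM against 323 and 350, log2 difference 0.84, adjusted p = 0.00612, edgeR) and *Uhrf1* (234, 234 and 292 against 348 and 377, 0.50, adjusted p = 0.0213, edgeR) passed the adjusted p below 2-fold. Of the stress and p53 list, *Perp*, *Atf3* and *Egr1* were called lower among 15 (median -0.32), and 0 by edgeR without clone KO_2.1. None of the 17 Hox genes tested (median -1.42), the 15 germline genes (-0.04) or the 7 two-cell genes (-0.44) was called by edgeR, and in the epithelial list only *Krt8* and *Krt18* were called among 16 (median -0.50), or 4 members without clone KO_2.2. The endoderm effector list had 1 call among 11 (2 without clone KO_2.2 or either TKO clone), *Sparc*, a matrix protein, at 503, 468 and 348 CPM against 171 and 162 (-1.41, SE 0.19, adjusted p = 0.0071, edgeR), and the list of Y chromosome and X inactivation genes had 0 by edgeR among 7 (median -2.85).

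The largest differences among called genes with at least 5 CPM in the higher group and no overlap included, on the lower side, *Mesp1*, *Lhx1* and *Kdr* of the primitive streak list. In full they were *Prdm6*, *Mesp1*, *Aplnr*, *Pdgfra*, *Bmper*, *Lhx1*, *Kdr*, *Bmp2*, *Klhl6* and *Nrp1*. *Prdm6* was at 16.9, 44.2 and 3.22 CPM in Tet1-/- and at 0.0864 and 0 in Tet2-/- (adjusted p = 0.0196, edgeR), and *Aplnr*, the apelin receptor of early mesoderm, at 33.5, 142 and 5.14 CPM against 0.892 and 0.174 (log2 difference -6.76, SE 1.5, adjusted p = 0.0227, edgeR). In each of these 10 genes clone KO_2.4 was the lowest of the Tet1-/- clones and clone KO_2.2 the highest. On the higher side 9 of the 10 were *Cspg5*, *Inhbb*, *Mt3*, *Tgfbi*, *Zfyve28*, *Elavl3*, *Crtac1*, *Tubb3* and *Gm7325*, with log2 differences from 2.87 to 3.68. *Cspg5*, a neuronal proteoglycan, was at 0.726, 0.857 and 0.947 CPM in Tet1-/- and at 9.27 and 12.7 in Tet2-/-, and *Inhbb*, the inhibin beta B subunit, at 0.638, 0.464 and 0.979 against 5.67 and 7.91. *Elavl3*, an RNA-binding protein of neurons, was at 11.6 and 12.6 CPM in Tet2-/-, against at most 1.86 in Tet1-/-. These genes were named by their size, not as a list, and no test of a neuronal theme was made.

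A choice by adjusted p favours genes with little spread between clones. Apart from *Tgfbi*, the genes with the smallest adjusted p were not among the largest differences named above. On the lower side they were *Bin1*, *Kirrel*, *Tdrd5*, *Map3k8* and *Dbndd2*. *Bin1*, a membrane-bending adaptor, was at 71.3, 77.0 and 59.1 CPM in Tet1-/- and at 19 and 15.1 in Tet2-/- (log2 difference -2.03, SE 0.20, adjusted p = 0.00302, edgeR), and *Kirrel*, a cell adhesion protein, at 126, 118 and 86.5 CPM against 21.9 and 20.8. *Tdrd5*, a Tudor protein of germ cells, was at 40.7, 36.0 and 25.9 CPM against 7.51 and 7.08. On the higher side they were *Tgfbi*, *Sfrp1*, *Fhod3*, *Nid1* and *Ptch1*, of which *Ptch1*, the Hedgehog receptor, was at 37.8, 37.9 and 54.2 CPM against 120 and 157 (1.67, SE 0.18, adjusted p = 0.00402, edgeR). All 5 genes named here on the higher side, and *Bin1*, *Kirrel*, *Tdrd5* and *Map3k8*, also had an adjusted p under 0.05 in the same direction at D0 (edgeR), whereas *Dbndd2* did not.

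The same contrast was fitted on the D0 libraries, which are separate libraries of clones KO_2.1, KO_2.3 and KO_2.4 and of KO_3.10 and KO_3.11. Of 14456 genes tested at D0, 382 were called higher in Tet2-/- (2.64%) and 513 lower (3.55%). Of the 289 genes called higher at D6, 280 were tested at D0, and 61 of them (21.8%) were called higher there and 1 lower. Of the 692 called lower at D6, 509 were tested at D0, of which 126 (24.8%) were called lower and 6 higher, and 183 had too few counts at D0 to be tested. Over the genes tested on both days the median log2 difference was 1.62 at D6 and 0.63 at D0 for those called higher, and -1.70 and -0.72 for those called lower. The D6 medians are those of genes chosen at D6, so their larger size is not a result. Of the lists fitted at D0, the primitive streak list had 1 member called higher and 2 lower among 11 (median -0.96), the naive pluripotency list 0 higher and 1 lower among 14 (median 0.10) and the definitive endoderm list 0 higher and 1 lower among 9 (median -0.55), by edgeR.

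Whether the difference changed between the days was tested with an interaction contrast over all 24 libraries. Of 15639 genes, 111 had a larger value of Tet2-/- minus Tet1-/- at D6 than at D0 (0.71%) and 219 a smaller one (1.4%), both by edgeR. Clones KO_2.1, KO_2.4, KO_3.10 and KO_3.11 were sequenced on both days, and with clone as a block the counts were 45 and 113. That block takes the D6 library labelled DKO_512, without a point, as the clone of the D0 library labelled DKO_5.12. *Krt8* was not called at D0 (log2 difference 0.04, adjusted p = 0.91, edgeR) and was lower at D6, an interaction of -2.83 (SE 0.51, adjusted p = 0.0106, edgeR). *Peg3* was higher in Tet2-/- at D0 (1.20, adjusted p = 0.018, edgeR) and lower at D6, an interaction of -3.54 (SE 0.60, adjusted p = 0.0091, edgeR). *Gbx2*, a homeobox target of LIF, did the reverse (-1.05 at D0, 2.01 at D6). For *T*, *Hand1*, *Sox17*, *Klf4* and *Tcl1* the interaction was not called.

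Of the germline genes, a class that DNA methylation silences in somatic cells, 6 of 15 tested members were called lower in Tet2-/- at D0 (*Dazl*, *Mael*, *Taf7l*, *Slc25a31*, *Rpl10l* and *Stk31*), where 3.55% of all genes tested were, and 0 at D6, by edgeR. Of the two-cell genes 5 of 9 tested were called lower at D0 and 0 of 7 at D6, and none of the 9 had a called interaction by edgeR. A difference between the days was therefore not shown for these lists.

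The genes called in the direct contrast were then followed in the other genotypes, as levels relative to the Tet1-/- mean at D6. Over the 289 genes higher in Tet2-/-, the median log2 difference from Tet1-/- was 1.35 in Tet2-/-, -0.01 in WT, -0.06 in DKO and 0.06 in TKO. Over the 692 lower genes it was -1.37 in Tet2-/-, 0.21 in WT, 0.09 in DKO and -0.13 in TKO. The level of a gene in DKO, which lacks both *Tet1* and *Tet2*, was nearer to Tet1-/- than to Tet2-/- for 99.7% of the higher and 94.5% of the lower genes, and for WT these shares were 96.2% and 98%. TKO shares were 91.3% and 84%. The genes were chosen by a difference of Tet2-/- from Tet1-/-, which by itself favours high shares for other genotypes, and no test was made. The shares over all tested genes were not computed, so a likeness of DKO to Tet1-/- is not read from these values. *T*, at 12.7 and 5.16 CPM in Tet2-/-, was at 77.2, 138 and 164 CPM in WT, 94.3 and 139 in DKO and 60.3 and 199.7 in TKO, and *Tgfbi*, at 52.7 and 65.1 CPM in Tet2-/-, was between 3.84 and 8.66 CPM in the 7 libraries of those genotypes. *Krt8* was at 353 and 473 CPM in DKO, 261 and 354 in TKO and 238, 642 and 573 in WT. *Gata4* was at 10.5 and 17.7 CPM in DKO and at 4.52 and 9.98 in TKO, and *Cxcr4* at 8.77 and 16.5 and at 5.32 and 3.94. For both genes DKO lay above both Tet2-/- clones and reached into the range of the Tet1-/- clones, whereas TKO lay below that range, and for *Gata4* on both sides of the Tet2-/- clones.

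**Figure D4:**
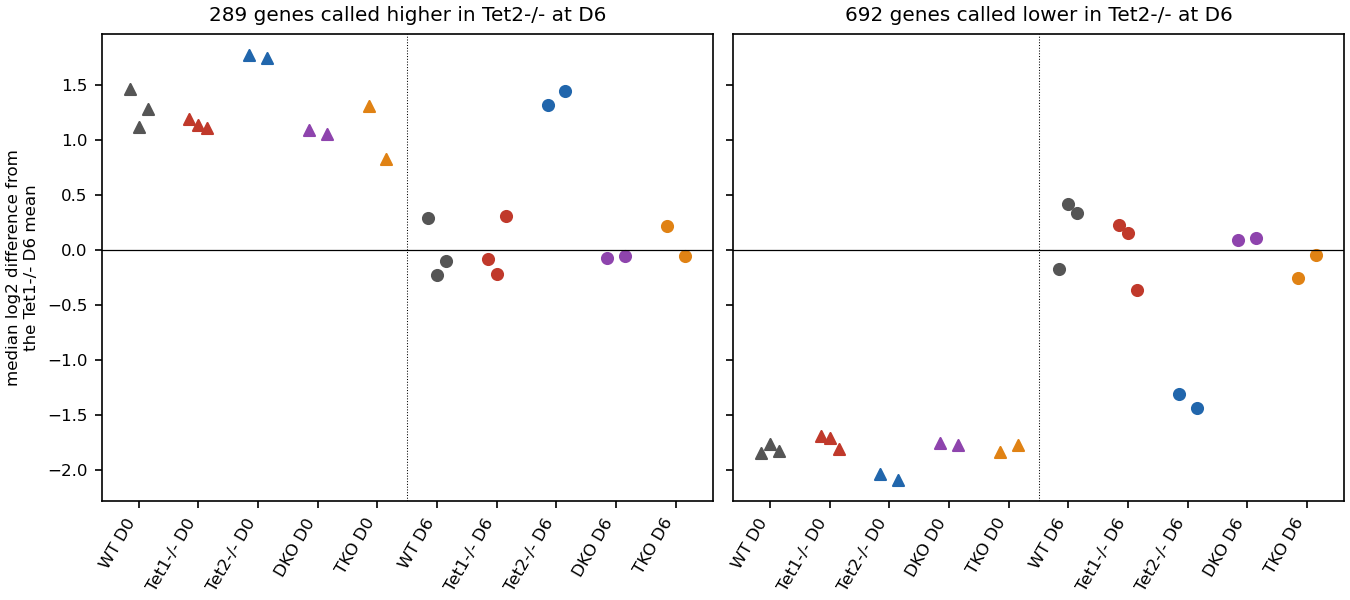
Each point is 1 library, and the y axis is the median over the 289 genes called higher (left) or the 692 called lower (right) of the log2 difference from the Tet1-/- D6 mean; triangles are D0 and circles D6. At D6 the Tet2-/- libraries stand at 1.32 and 1.45 (left) and at -1.31 and -1.43 (right), as the choice of genes sets.

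Among the Tet1-/- clones, clone KO_2.4 had the level nearest to Tet2-/- for 75.4% of the genes called higher and 74.4% of those called lower, against 12.1% and 3.32% for clone KO_2.1 and 12.5% and 22.3% for clone KO_2.2. Over all 7274 tested genes with a log2 difference above 0 clone KO_2.4 was likewise the nearest for 61.6%, and over the 8152 below 0 for 57.2%. Its median over the higher genes was 0.31 above the Tet1-/- mean and that over the lower genes 0.37 below it (-0.37), still on the side of the other Tet1-/- clones. On the same scale the D0 libraries were, over the higher genes, at a median of 1.30 in WT, 1.12 in Tet1-/- and 1.79 in Tet2-/-, and over the lower genes at -1.78, -1.74 and -2.10. The genes were chosen by the D6 levels of Tet2-/- and Tet1-/-, so nothing is read from how near the D6 libraries of these genotypes lie to D0.

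Genes of whole chromosomes were shifted in some clones. Of the tested genes 92.2% have 1 chromosome in the annotation of mm9, and over the 19 autosomes the median log2 difference at D6 ranged from -0.23 (chromosome 11) to 0.28 (chromosome 8). On chromosome X the median was -0.09, and 8.53% of 551 genes were called lower and 1.09% higher. The share called lower was at most 6.78% on an autosome. On chromosome 8, 3.95% of 735 genes were called higher and 2.04% lower, the reverse of the proportion over all genes, and the median was 0.29 at D0. Relative to the Tet1-/- mean of the day, chromosome 8 stood at 0.24 and 0.33 in both Tet2-/- clones at D6, at -0.01, -0.20 and 0.21 in clones KO_2.1, KO_2.2 and KO_2.4, and at 0.24 and 0.28 in Tet2-/- at D0. Chromosome 6 was at 0.13 in the contrast at D6 and 0.26 at D0, whereas chromosome 11 was at -0.23 at D6 and 0.01 at D0. On chromosome 11 at D6 clone KO_2.2 was at 0.19 and clone KO_2.4 at -0.17, beside -0.17 and -0.19 in Tet2-/-. The part of these shifts in the calls on these chromosomes was not tested.

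**Figure D5:**
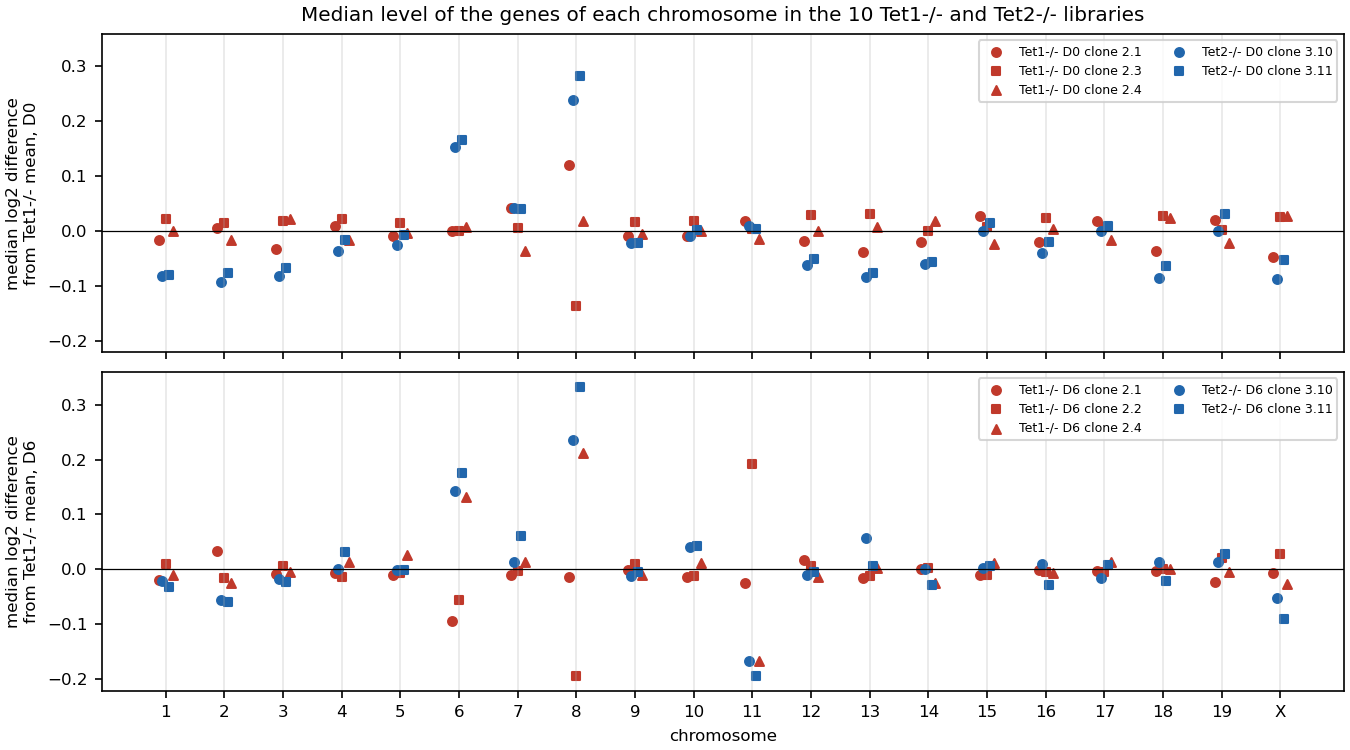
Each point is the median over the tested genes of a chromosome of a library's log2 CPM minus the mean of the Tet1-/- libraries of the same day, for D0 (top) and D6 (bottom), with red for Tet1-/- clones and blue for Tet2-/- clones. At D6 clone KO_2.4 (red triangle) lies with the Tet2-/- clones on chromosomes 6, 8 and 11. At D0 it does not on chromosomes 6 and 8, and on chromosome 11 the groups are not apart.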

How the data were processed

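Polyadenylated RNA of mouse ESC clones was sequenced at D0 and D6. The authors mapped reads with STAR 2.5.1 to mm9 and deposited counts, whole numbers of reads per RefSeq transcript line named by symbol, without normalization or pooling. The counting program and its use of strand are not given consistently in the sources used here, so overlapping, antisense and multigene family genes are uncertain. No line was a spike-in RNA, so scaling by spike-in was not repeated. Each table has 31928 lines for 22926 symbols, and the first line of a symbol was used (4911 symbols have several).

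Analyses used edgeR 4.0.16, DESeq2 1.42.0 and limma 3.58.1 in R 4.3.3, and Python 3.11.15. Libraries were scaled by TMM (factors 0.96 to 1.03 at D6), genes were kept by filterByExpr (minimum count 10), and 1 quasi-likelihood model was fitted over the 12 libraries of a day or over all 24. Genes were called at a Benjamini-Hochberg adjusted p under 0.05 and over 2-fold, with SE as the log2 difference divided by the root of F. The fits were also run on simulated data with known differences, and the outcome is not reported here. Levels for figures and medians are log2(CPM + 0.5). The alternatives were RLE scaling, no scaling, no filter, DESeq2, the 5 libraries alone, the highest line of a symbol, no fold limit, each library left out, and a block of replicate number or, for the interaction, of clone. The same clone at both days pairs those libraries by its label; the deviations of these libraries from their group means correlated with r from 0.078 to 0.189.

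The comparison, its gene lists and its rules were chosen with earlier results of these data known. Genes were named if edited, if called in a list (up to 4 a direction by adjusted p, and others needed to describe it), if among the 10 largest differences a direction with at least 5 CPM and no overlap, or if among the 5 smallest adjusted p a direction. Some genes that these rules name are not reported here. Depth was 26033543 to 31426279 counts in Tet1-/- and 28139525 to 33991489 in Tet2-/- at D6. Whether depth or the spread between clones limits the precision was not tested. Columns that matched no sample numbered 0. Promoter sequences came from RefSeq (GRCm38.p6).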

Additional observations from a re-analysis of the deposited data

Results flagged for a closer look

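These results were picked out because the Tet2-/- minus Tet1-/- difference at D6 differed from that at D0 by the interaction contrast of edgeR (adjusted p under 0.05 and over 2-fold). Groups of 2 or 3 clones are too small for a check of single outlying libraries. The counts were 111 genes with a larger and 219 with a smaller value of Tet2-/- minus Tet1-/- at D6. A negative difference that grew in size thus counts as smaller.

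Among the named genes the interaction was positive for *Inhbb* (4.12), *Gm7325* (3.15), *Gbx2* (3.07) and *Tet2* (2.43). It was negative for *Nrp1* (-5.71), *Pdgfra* (-5.69), *Cdh11* (-5.11), *Cxcr4* (-4.57), *Mixl1* (-4.17), *Atf3* (-3.76), *Peg3* (-3.54), *Gata4* (-3.27), *Igf2* (-3.22), *Snai1* (-3.10), *Krt8* (-2.83), *Tead4* (-2.28), *Axin2* (-1.79), *Tpm1* (-1.62), *Dbndd2* (-1.55), *Kirrel* (-1.52), *Sparc* (-1.46) and *Cald1* (-1.13), all on the log2 scale. With clone as a block, 15 of these 22 genes were still called by edgeR. *Pdgfra* (-4.31, adjusted p = 0.0509), *Nrp1* (-4.53, adjusted p = 0.101), *Mixl1* (-3.73, adjusted p = 0.079), *Cald1* (-1.24, adjusted p = 0.0658), *Snai1* (-2.10, adjusted p = 0.0896), *Axin2* (-1.50, adjusted p = 0.118) and *Igf2* (-2.57, adjusted p = 0.096) were not (quasi-likelihood test of edgeR, Benjamini-Hochberg correction).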

How the results depend on the processing

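Of the 93 named genes (91 under DESeq2 and 92 with only the Tet1-/- and Tet2-/- libraries), 0 changed sign at D6. Their calls were lost for 57 without clone KO_2.1, 18 without KO_2.2, 1 without KO_2.4, 80 without KO_3.10, 89 without KO_3.11, 7 without either DKO clone, 3 or 4 without a WT clone (O4.1 or O4.13), 14 with only the Tet1-/- and Tet2-/- libraries and 11 with the replicate block. With no fold limit 583 genes were higher at D6, 1516 higher and 1343 lower at D0, and 200 larger in the interaction, and with only the Tet1-/- and Tet2-/- libraries (5 a day) 422 were lower at D6 and 266 larger and 332 smaller in the interaction. DESeq2 gave 224 larger and 483 smaller in the interaction. Other scalings, filters, lines of a symbol and DESeq2 at D6 and D0 stayed within 1.5 times the counts over all genes, but moved some list counts by over 1.5 times. DESeq2 called 9 cardiac, 8 lower and 2 higher BMP, 7 collagen, 5 naive, 2 endoderm effector and 2 lower neuroectoderm members. With no filter there were 6 naive, 8 lower BMP and 5 collagen members, and with library totals 4 epithelial members. With only the Tet1-/- and Tet2-/- libraries 5 naive, 3 smooth muscle and 1 higher and 0 lower Nodal members were called by edgeR, so that *Cfc1* was lost. With no fold limit there were 9 smooth muscle, 2 endoderm effector, 4 epithelial and 3 higher Wnt members.

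With 1 library left out, the counts ran from 2 to 571 higher and 0 to 1142 lower at D6, from 105 to 467 higher and 136 to 706 lower at D0, and from 5 to 439 larger and 1 to 578 smaller in the interaction. A lone Tet2-/- clone is then assumed to vary like the other groups, and the 0 lower genes without D6 clone KO_3.11 (edgeR) were 953 at an unadjusted p under 0.05. At D0 the counts moved by over 1.5 times without clone KO_2.3 (203 higher, 302 lower), KO_2.4 (249 higher), KO_3.10 (105 and 136) or KO_3.11 (213 and 136). In the interaction this held without D0 clones KO_2.3 (28 and 51), KO_2.4 (54 and 83), KO_3.10 (8 and 7), KO_3.11 (21 and 58) and clones TKO_8.4 (191 and 356) and TKO_8.12 (190 and 359), and without D6 clones KO_2.1 (34 and 79), KO_2.2 (55 larger), KO_2.4 (439 and 578), KO_3.10 (11 and 6), KO_3.11 (5 and 1) and WT clone O4.2 (221 larger).

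With the replicate block by number the D6 counts were 248 higher and 560 lower and the D0 counts 349 and 490; the deviations of same-numbered libraries correlated with r = 0.0541 and -0.231, so the numbers were not taken as pairs. With the replicate block by clone the interaction counts were 45 larger and 113 smaller. With the replicate block by number the naive list had 1 member called, the stress list 1, the Nodal and LIF lists 1 each called higher, and the epithelial list 4. List counts that a left-out library moves by over 1.5 times stand beside each list. The cause of these changes was not tested beyond the smaller number of libraries.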
